A study of Mus musculus with 2 samples.

Results

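Transcripts of the circadian clock were measured in the heart of aged mice by total RNA-seq. The 10 genes described are the activators Arntl and Clock, the repressors Per1, Per2, Per3, Cry1 and Cry2, the nuclear receptors Nr1d1 and Nr1d2, and the output factor Dbp. They were taken by exact gene symbol from the 55536 annotated genes of the deposited gene table. All 10 passed the filter used for tests, a mean TPM (transcript level scaled by length to a fixed library sum) of at least 1, and 9 were at 1 TPM or more in both libraries. The exception was Per2, which was under 1 TPM in replicate 2.

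Both libraries came from 1 group, male B6CASTF1/J mice (the first-generation hybrid of C57BL/6J and CAST/EiJ) aged 18 to 20 months, with no treatment named. Each was made from 300 ng of total RNA of heart tissue, with ERCC spike-ins (synthetic RNAs of known amount) and a stranded library type reduced in ribosomal RNA. The labels call the libraries biological replicates 1 and 2 and give them different sample identifiers but 1 donor identifier. They name neither an hour of collection nor the lighting or feeding of the animals, and no younger group was included, so age and time of day could not be compared. The only contrast is replicate 2 over replicate 1. With 1 donor identifier for both, the labels leave unclear whether the libraries come from different animals. A technical and a biological difference between them therefore cannot be told apart.

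The clock is a transcriptional loop that runs in heart muscle cells as in most tissues. The proteins of Clock and Arntl (also called BMAL1) pair and bind E-boxes, short DNA elements at the Per, Cry, Nr1d and Dbp genes, and the PER and CRY proteins then repress that pair. The receptors made from Nr1d1 and Nr1d2 (REV-ERB alpha and beta) repress Arntl through elements that hold the nuclear receptor motif AGGTCA, and DBP activates genes through D-boxes. In mouse peripheral tissues Arntl, Clock and Cry1 reach their highest level late in the night to early morning and the Nr1d genes, Dbp and the Per genes in the course of the day to evening, so the groups are called the morning and evening limbs below. Cry2, which cycles weakly, was counted with the evening limb.

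The RefSeq promoter table (GRCm38.p6, the build also called mm10) held 13 windows for 9 of the genes, each from 250 bases before to 50 bases after an annotated start, and Per2 had none. The windows were searched on both strands for the E-box CACGTG, the E-prime box CACGTT, the D-boxes TTATGTAA and TTATGCAA, the nuclear receptor motif AGGTCA and the cyclic AMP response element TGACGTCA. These motifs do not contain one another. Below are 4 windows on the strand of the gene, shown for the period gene with the lowest ratio between libraries (Per1), a period gene that did not share it (Per3), the repressor with both E-box types (Cry1) and the most abundant clock gene (Nr1d1). Capitals mark the matches, which read AACGTG for CACGTT and TGACCT for AGGTCA where the match lies on the other strand.
Per1 (chr11:69098699-69098998, plus strand): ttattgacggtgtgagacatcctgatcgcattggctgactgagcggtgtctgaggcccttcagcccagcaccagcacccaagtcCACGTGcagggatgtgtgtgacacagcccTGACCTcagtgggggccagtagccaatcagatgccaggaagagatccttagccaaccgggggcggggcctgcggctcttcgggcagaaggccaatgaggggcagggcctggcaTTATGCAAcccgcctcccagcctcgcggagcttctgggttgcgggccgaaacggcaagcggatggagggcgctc
Per3 (chr4:151044616-151044915, minus strand): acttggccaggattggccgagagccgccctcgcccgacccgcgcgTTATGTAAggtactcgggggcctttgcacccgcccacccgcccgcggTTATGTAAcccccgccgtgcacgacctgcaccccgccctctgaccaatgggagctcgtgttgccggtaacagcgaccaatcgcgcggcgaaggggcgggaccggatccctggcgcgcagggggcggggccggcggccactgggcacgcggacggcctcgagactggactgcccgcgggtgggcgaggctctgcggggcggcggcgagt
Cry1 (chr10:85185005-85185304, minus strand): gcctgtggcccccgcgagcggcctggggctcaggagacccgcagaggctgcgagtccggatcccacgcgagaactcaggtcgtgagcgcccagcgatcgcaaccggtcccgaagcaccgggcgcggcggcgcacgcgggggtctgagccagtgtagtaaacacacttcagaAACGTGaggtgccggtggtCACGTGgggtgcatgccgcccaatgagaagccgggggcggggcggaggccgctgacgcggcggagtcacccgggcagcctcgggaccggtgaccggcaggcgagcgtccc
Nr1d1 (chr11:98775328-98775627, minus strand): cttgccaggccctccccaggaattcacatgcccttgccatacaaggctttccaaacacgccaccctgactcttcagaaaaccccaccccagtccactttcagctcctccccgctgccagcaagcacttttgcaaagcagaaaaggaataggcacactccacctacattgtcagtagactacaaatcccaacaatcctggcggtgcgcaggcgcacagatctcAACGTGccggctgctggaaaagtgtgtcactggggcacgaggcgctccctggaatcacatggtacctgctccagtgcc

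The Per1 window held an E-box whose first base was at -166 (the start site counted as 0), AGGTCA at -137 and the D-box TTATGCAA at -24. In Per3 the other D-box, TTATGTAA, occurred at -205 and again at -158. Cry1 had an E-prime box at -79 followed by an E-box at -60, and single E-prime boxes stood at -28 in Nr1d1 and at -166 in Cry2. AGGTCA was found in Nr1d2 at -77, in 1 window of Clock at -119 and in 1 window of Arntl at 31 bases after the start. Among all 32851 windows of the table, 7.15% held CACGTG, 4.68% CACGTT, 0.938% TTATGTAA, 0.743% TTATGCAA, 16.3% AGGTCA and 1.79% TGACGTCA. No window of these genes held TGACGTCA, and the Dbp window held none of the 6 motifs. A match is a description of the letters of the reference build only, and binding was not measured. The sequences of the 2 parental alleles of these hybrid mice were not examined. Any link of the motifs to the ratios between libraries was not tested.

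The positive arm was present at middle levels. Arntl, the DNA-binding activator (ENSMUSG00000055116.8, chr7:113207465-113314126), was at 7.47 TPM in replicate 1 and 7.92 in replicate 2 (7.70 ± 0.318, SD, n = 2). Its partner Clock, an acetyltransferase as well as a transcription factor (chr5:76209868-76304792), was at 11.7 and 12.1 TPM (11.9 ± 0.276). For both genes the libraries were close to each other. Arntl made up 97.4% of the summed TPM of Arntl and its paralogue Arntl2 in each library, and Clock 84.5% and 81.7% of the sum of Clock and Npas2.

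Per1 and Per2 differed the most between the libraries, and Per3 did not share this. Per1, the period gene that is also an acute response gene to hormones and cyclic AMP (ENSMUSG00000020893.17, chr11:69095217-69109960), was at 15.6 TPM in replicate 1 and 7.39 in replicate 2 (11.5 ± 5.82). Per2, whose protein scaffolds the repressive complex (chr1:91415982-91459324), was at 2.24 and 0.81 TPM (1.53 ± 1.01). Both were high in replicate 1 and low in replicate 2. Per3, a period gene that is not needed for rhythms in mice (chr4:151003652-151044665), was at 1.34 and 1.29 TPM (1.32 ± 0.0354). Per1 held 81.4% of the family's summed TPM in replicate 1 and 77.9% in replicate 2, Per2 held 11.7% and 8.54%, and Per3 held 6.98% and 13.6%. Per2 was thus above Per3 in replicate 1 and below it in replicate 2.

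Of the cryptochromes, the direct repressors of the activator pair, Cry2 (chr2:92403646-92434043) was at 6.21 and 5.9 TPM (6.06 ± 0.219) and Cry1 (chr10:85131700-85185064) at 4.37 and 3.79 TPM (4.08 ± 0.41). Cry2 was the higher in both libraries, with 58.7% and 60.9% of their sum.

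The REV-ERB receptors were the most abundant of the 10 genes. Nr1d1 (ENSMUSG00000020889.11, chr11:98767932-98775333) was at 21.8 and 21.6 TPM (21.7 ± 0.184), higher than 76.0% of the 10882 nuclear protein-coding genes at 1 TPM or more in both libraries, whose median was 8.6 TPM. Nr1d2 (chr14:18204054-18239127) was at 19.4 and 15.0 TPM (17.2 ± 3.12). Dbp, a leucine zipper factor and a direct output of the activator pair (chr7:45705088-45710203), was at 6.06 and 4.44 TPM (5.25 ± 1.15). Dbp held 16.0% and 11.3% of the TPM summed over its family of Dbp, Tef and Hlf, near the 12.1% and 12.5% of Hlf, while Tef held 71.9% and 76.2%.

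**Figure D1:**
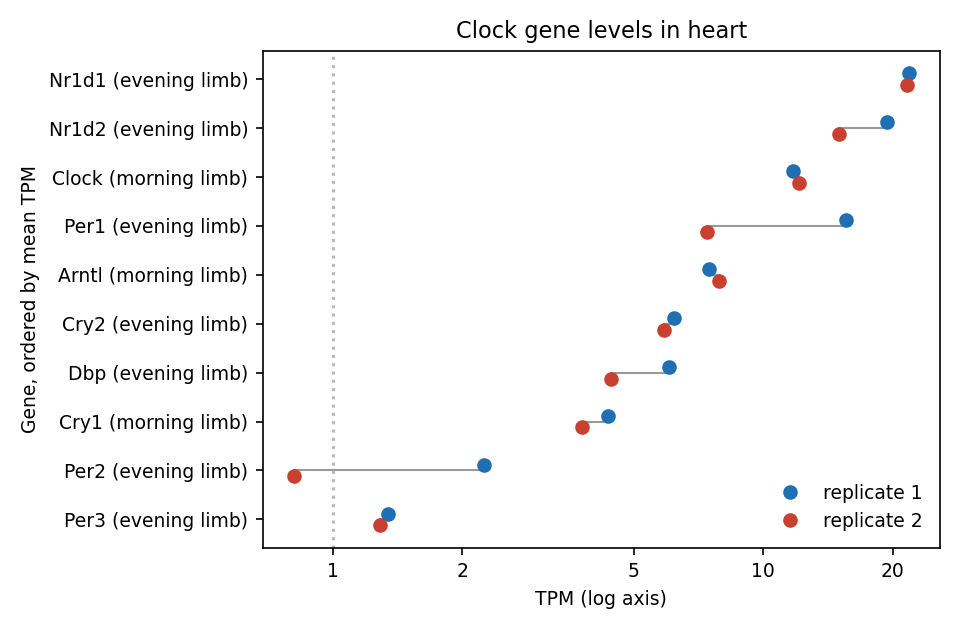
TPM (log axis) of the 10 clock genes in replicate 1 and replicate 2, 1 point per library, ordered by the mean, with a grey line joining the libraries and a dotted line at 1 TPM. Per1 (15.6 and 7.39) and Per2 (2.24 and 0.81) have the widest gaps, and the points of Nr1d1, Clock, Arntl, Cry2 and Per3 nearly coincide.

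Ordered by mean level, the genes ran from Nr1d1 through Nr1d2, Clock, Per1, Arntl, Cry2, Dbp, Cry1 and Per2 to Per3. The ranges of neighbouring genes overlapped for Clock and Per1, for Per1 and Arntl, for Cry2 and Dbp, and for Per2 and Per3, so those places in the order did not differ beyond the spread of 2 libraries. The other neighbours did not overlap, although Dbp and Cry1 were separated only by 4.44 against 4.37 TPM. In the second transcript table, a separate quantification of the same libraries summed per gene, Nr1d1 (22.6 and 23.0 TPM) and Nr1d2 (22.7 and 16.8) overlapped, and Clock and Per1 did not. In TPM, 8 of the 10 genes were lower in replicate 2, beside 75.3% of all tested genes. Mitochondrial genes took 29.3% of the counts in replicate 1 and 34.4% in replicate 2. When TPM was rescaled to nuclear protein-coding genes, Nr1d1 was at 52.7 and 60.3, Arntl at 18.0 and 22.1, and Per1 at 37.7 and 20.6. On that scale 4 of the 10 genes (Per1, Per2, Nr1d2 and Dbp) were lower in replicate 2, beside 38.9% of all tested genes.

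Ratios between libraries were therefore tested on counts scaled by TMM (a trimmed mean that centres most genes near 0). A two-sided exact binomial test was used, adjusted by the Benjamini-Hochberg method over 12189 genes, and it compares the 2 libraries, not conditions. Per1 had 1533 counts in replicate 1 and 662 in replicate 2, a log2 ratio of -1.07 (95% exact interval -1.21 to -0.94) or 2.10-fold lower, with an adjusted p of 2.81e-60 by that exact test. It ranked 122 from the lowest ratio of all genes tested. Per2 had 316 and 143 counts, a log2 ratio of -0.997 (-1.30 to -0.72) and an adjusted p of 2.11e-11 by the exact test, and ranked 139. Its fold stopped just short of 2 with the prior count of 2 used here (log2 ratio -1.0045 with a prior count of 0.5). TPM, which shows a larger difference, also differs in library scaling and in the deposited effective length used to scale the level (4569 bases in replicate 1 and 5734 in replicate 2). In replicate 1 the 231-base transcript Per2-202 took 20.9% of the TPM of Per2 from only 1.9 expected counts, and in replicate 2 it took 0. In the second transcript table Per2-201 held all of the TPM in both libraries. Per1 and Per2 both lay outside the central 95% of all tested genes, which ran from -0.66 to 0.56.

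Nr1d2 was also lower in replicate 2, by a small amount. It had 2236 and 1802 counts, a log2 ratio of -0.17 (-0.26 to -0.08) and an exact test adjusted p of 0.000973. With spike-in scaling its ratio was -0.08 and its adjusted p 0.181, so the call rests on the scaling. Arntl was the only member called higher, with 635 and 676 counts, a log2 ratio of 0.23 (0.07 to 0.39) and an exact test adjusted p of 0.0200. With total-count scaling its ratio was 0.15 and its adjusted p 0.139.

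The other 6 genes did not pass the test. Per3 had the highest ratio, 0.33 (0.04 to 0.64), from 176 and 202 counts (exact test, adjusted p = 0.0869). The ratio of Dbp was -0.27 (-0.55 to -0.01), from 265 and 199 counts (exact test, adjusted p = 0.131). For Nr1d1 it was 0.12 (0.02 to 0.21), for Clock 0.08 (0.01 to 0.16), for Cry1 -0.08 (-0.29 to 0.13) and for Cry2 0.00 (-0.15 to 0.16). The intervals of all 4 lay inside the central 95% of all tested genes.

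By this rule 3 of the 10 genes were called lower, beside 15.9% of all 12189 genes, and 1 was called higher, beside 10.7%. With a 2-fold difference required as well, 1 member (Per1) was lower, beside 0.968% of all genes, and none was higher, beside 0.476%. The median log2 ratio was -0.04 over the members and -0.02 over all genes tested, so the middle of the list was at the background. Of all calls 59.9% were lower in replicate 2 with TMM, 64.5% with DESeq2 size factors, 83.2% with total counts and 25.6% with spike-in counts. The exact binomial test covers counting error alone. The edgeR exact test, which adds a spread of 11.4% (biological coefficient of variation, estimated from these same libraries taken as 1 group), called 0.993% of all genes lower. It kept Per1 (adjusted p = 0.00166) and Per2 (adjusted p = 0.0221) as lower and gave Nr1d2 and Arntl an adjusted p of 1.

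**Figure D2:**
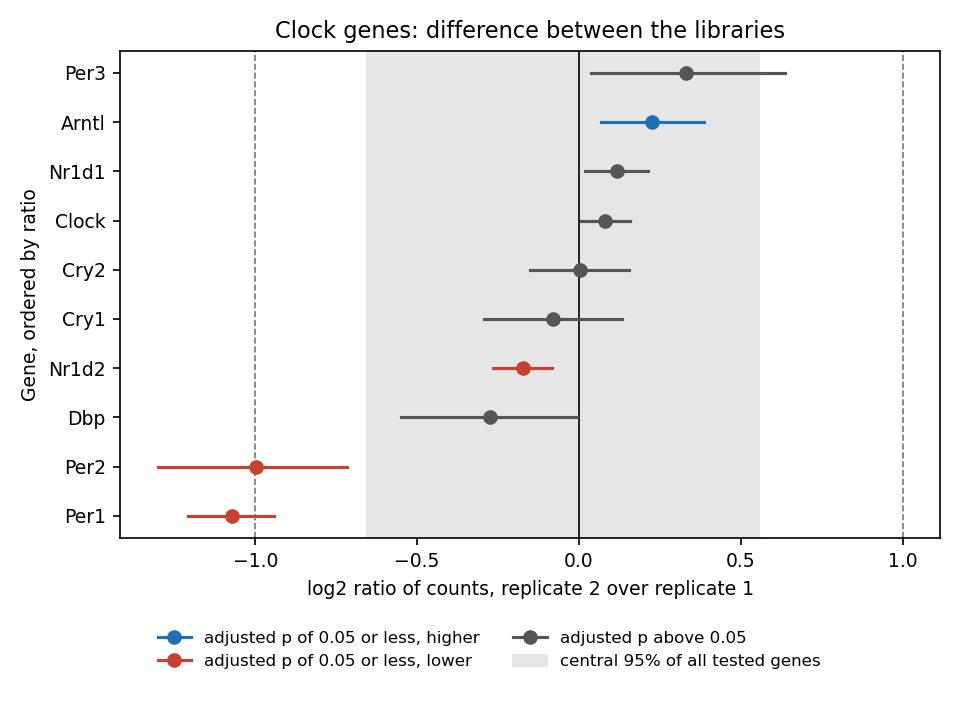
Log2 ratio of scaled counts, replicate 2 over replicate 1, for each clock gene (points) with its 95% exact interval (lines), the central 95% of all tested genes in grey and dashed lines at 2-fold. Red points passed the exact test as lower, the blue point as higher, and Per1 (-1.07) and Per2 (-0.997) alone lie outside the grey band.

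Ratios between clock genes within a library do not depend on library scaling. Arntl over Nr1d1 was at a log2 TPM ratio of -1.55 in replicate 1 and -1.45 in replicate 2, and the difference between libraries, taken from counts, was 0.11 (95% exact interval -0.08 to 0.30). Arntl over Clock was at -0.65 and -0.61 and Cry1 over Cry2 at -0.51 and -0.64, and the intervals of their differences (-0.03 to 0.32 and -0.35 to 0.18) included 0. These pairs gave no difference between the libraries beyond counting error.

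Ratios that held Per2 or Dbp shifted beyond counting error, except Per1 over Per2. Arntl over Per2 was at 1.74 and 3.29, a difference in counts of 1.23 (0.90 to 1.57), and Clock over Per2 at 2.39 and 3.90, a difference of 1.09 (0.79 to 1.39). Arntl over Dbp was at 0.30 and 0.83, a difference of 0.50 (0.19 to 0.82). Per2 over Per3 changed sign, from 0.74 to -0.67, with a difference of -1.34 (-1.76 to -0.92). By contrast Per1 over Per2 was at 2.80 and 3.19, and its difference in counts was -0.07 (-0.39 to 0.26), so these 2 genes kept their proportion in counts. Nr1d1 over Nr1d2 was at 0.17 and 0.52, a difference of 0.29 (0.16 to 0.42). The intervals of these differences, and that of the limbs below, hold counting error only, so further spread between libraries is not covered. Taken singly, Dbp was not called (exact test, adjusted p = 0.131). The edgeR exact test called none of Arntl, Dbp, Nr1d1 and Nr1d2.

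Summed over the limbs, Arntl, Clock and Cry1 came to 23.6 TPM in replicate 1 and 23.8 in replicate 2, and the 7 evening genes to 72.8 and 56.4. The log2 ratio of morning over evening was -1.63 and -1.24, a difference in counts of 0.33 (0.25 to 0.41). The sums run over unequal numbers of genes; per gene the mean of the morning limb was 7.86 and 7.94 TPM and that of the evening limb 10.4 and 8.06. The difference in the evening sum was made up chiefly of Per1, at 15.6 and 7.39 TPM, and Nr1d2, at 19.4 and 15.0.

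**Figure D3:**
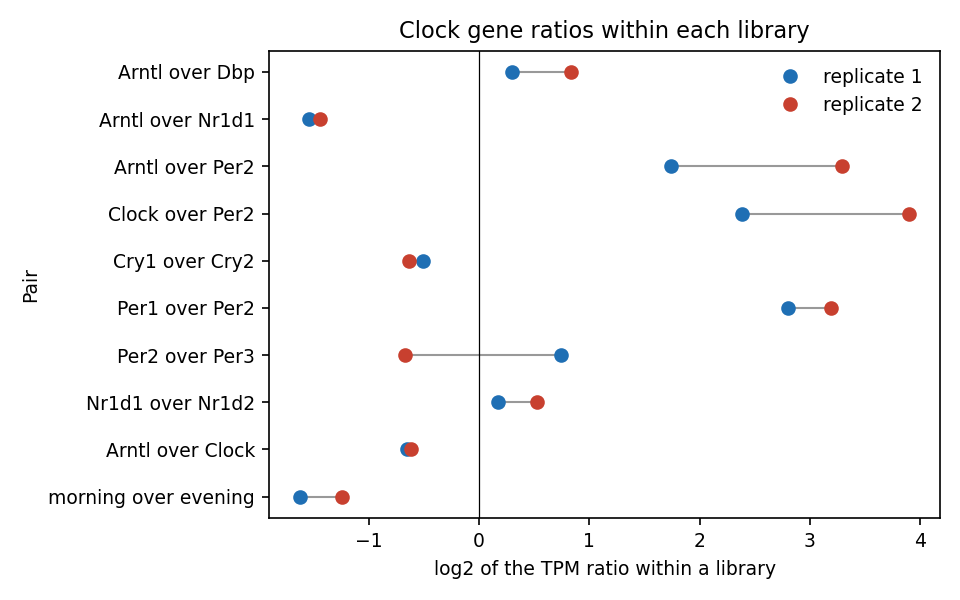
Log2 ratio of TPM between pairs of clock genes within replicate 1 and within replicate 2, with the summed morning over evening limb at the bottom. Pairs of Per2 with Arntl, Clock or Per3 lie far apart between libraries (Arntl over Per2 at 1.74 and 3.29). Per1 over Per2 lies closer (2.80 and 3.19), and Arntl over Clock and Arntl over Nr1d1 nearly coincide.

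The 10 genes have 44 annotated transcripts in GENCODE M21, and both transcript tables gave each gene the same leading transcript. Cry1-201 took all of its gene's TPM, Nr1d1-201 98.6% ± 0.444, Cry2-201 94.0% ± 3.25 and Arntl-201 83.6% ± 5.44 (SD, n = 2, first transcript table). Clock was split between Clock-201 at 54.9% ± 1.95 and the longer Clock-205 at 30.1% ± 4.68, which in the second table were at 66.3% and 17.6%. Dbp-201 held 56.1% and 56.4% of Dbp, and Dbp-204 held 25.7% and 30.7% (14.6% and 20.1% in the second table).

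The split of Per1 among its transcripts differed between libraries and tables. Per1-201, the full-length form, was at 9.88 TPM in replicate 1 and 3.29 in replicate 2, or 63.3% and 44.6% of the gene. Per1-204, a 496-base model that begins at the start site of the second Per1 promoter window (position 69100152, inside the window), took 32.01% and 36.4% of the TPM from only 61.3 and 32.8 expected counts, since TPM divides by length. In the second transcript table Per1-204 was at 0% and 22.5%, while a full-length model that begins 6 bases further on was at 34.7% and 1.58%. The assignment among starts therefore differed between the tables, but the leading form was lower in replicate 2 in both (6.29 and 4.03 TPM in the second). Per1-202, with the most upstream start, was at 0.74 and 0.8 TPM in the first table, so it did not follow the leading form there.

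Retained-intron transcripts, unspliced or partly spliced forms with no coding sequence assigned, were prominent in 3 genes. They made up 45.9% of Per3 in replicate 1 and 22.5% in replicate 2, 26.4% and 21.02% of Nr1d2, and 18.2% and 12.9% of Dbp. For Per3 the share was lower in replicate 2 in both tables, with Per3-202 at 38.3% and 14.7% in the first and 39.6% and 8.73% in the second, from 32.3 and 12.0 expected counts. The coding form Per3-201 had 123 and 162 expected counts. Nr1d2-202 held 21.6% and 18.6%, and the coding Nr1d2-204, listed at 0 in the first table, held 17.8% and 13.6% in the second. Total RNA libraries also hold RNA still being spliced, and the tables do not separate it from mature retained introns.

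**Figure D4:**
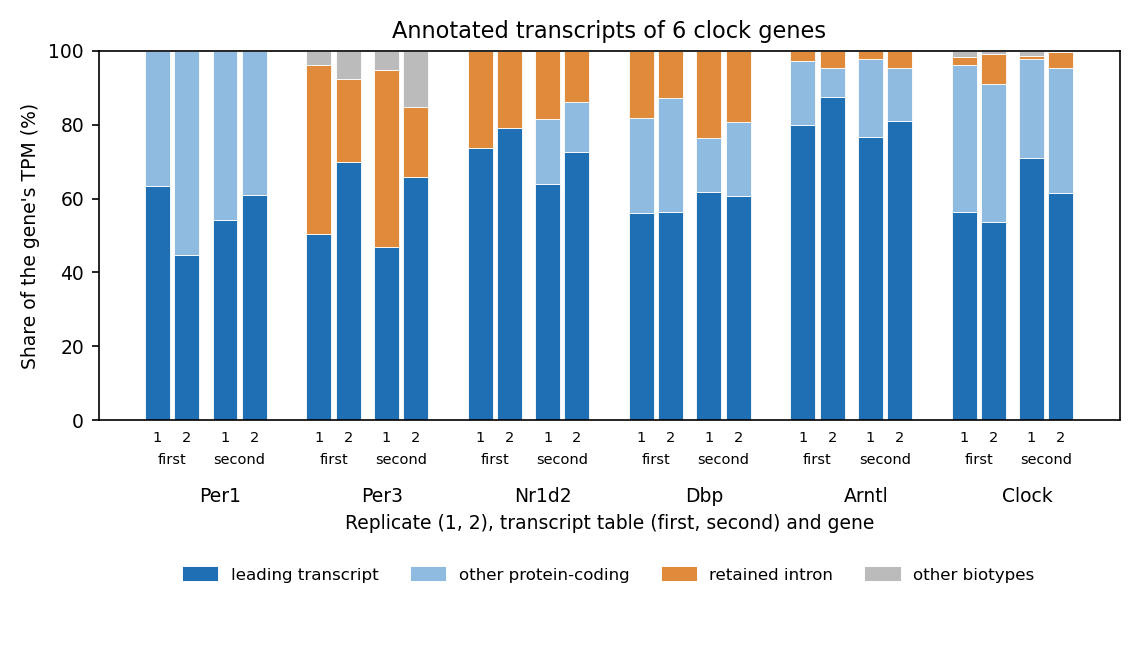
Share of each gene's TPM (%) by kind of annotated transcript for 6 clock genes, in replicates 1 and 2 of the first and second transcript tables (stacked bars). Retained introns (orange) are widest for Per3 in replicate 1, at 45.9% in the first table, and all Per1 TPM lies in protein-coding models.

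Some members share exonic bases with a gene on the other strand. Nr1d1 overlaps the thyroid hormone receptor gene Thra by 263 of its 3077 exonic bases, and Thra was at 41.4 and 38.1 TPM. Dbp overlaps Sphk2, a sphingosine kinase gene at 8.15 and 6.0 TPM, by 539 of 2993 bases. Whether the counting used strand is not stated in the sources used here, so the levels of Nr1d1 and Dbp may hold reads of these neighbours.

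Other clock components spanned a wide range of levels, from Arntl2, under 1 TPM and not tested, to Ppp1cb at 187.1 and 162.4 TPM. The counts of the lists that follow are by the exact binomial test with TMM unless another setting is named. They stand beside the same 10.7% higher and 15.9% lower over all genes, or 0.484% and 0.993% by the edgeR exact test. Counts with spike-in scaling stand beside 2884 higher and 990 lower of all 12189 genes. Those with total counts stand beside 700 higher and 3473 lower. Of 11 partner and paralogue factors, 9 were tested and 4 were called higher and 2 lower (none either way by edgeR), with a median log2 ratio of 0.10. Tef, the main factor of the DBP family here, was at 27.2 and 30.01 TPM (log2 ratio 0.20). The D-box repressor Nfil3 was at 13.7 and 13.4 TPM (0.10). Bhlhe40, an E-box repressor also known as DEC1, was at 13.7 and 7.23 TPM (-0.56), whereas its paralogue Bhlhe41 was at 6.38 and 9.18 (0.51); this pair was chosen after its values were seen, and the edgeR exact test called neither (adjusted p = 0.682 and 0.944). The 15 post-translational regulators were mostly kinases, phosphatases and ubiquitin ligases that set the life of PER and CRY, besides Usp2, Timeless, Nono and Cipc. Of the 15, 14 were tested and 1 was called, Csnk1a1 (casein kinase 1 alpha, 81.8 and 67.1 TPM, log2 ratio -0.10). Their median was 0.00. With spike-in scaling 6 were called higher and none lower, and with total counts 7 lower and none higher.

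Of 22 clock-controlled output genes of heart, 20 were tested, with 7 called higher, 8 lower and a median of -0.08 (0.02 with spike-in scaling). The edgeR exact test called 3 higher (Angptl4, Ucp3 and Pdk4) and none lower, and with total counts the binomial test called 7 higher and 11 lower. Angptl4, an inhibitor of lipoprotein lipase, was at 2.2 and 9.79 TPM (2.26) and Ucp3, a mitochondrial carrier, at 6.32 and 13.5 (1.24). Pdk4, which restrains glucose oxidation, was at 165.5 and 252.7 TPM (0.84), and the sarcomere gene Tcap (659.1 and 550.7 TPM, -0.13) and, in fat synthesis, Dgat2 (138.4 and 121.2 TPM, -0.06, turning to 0.030 with spike-ins) differed little. Klf15, a rhythmic factor of heart named after its values were seen, was at 28.6 and 15.3 TPM (-0.78) and was not called by the edgeR exact test (adjusted p = 0.0773).

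A list of 12 inducers and co-induced genes of Per1 (glucocorticoid and cyclic AMP response) had 11 tested members, of which 6 were called lower and 1 higher (4 and 0 by edgeR), with a median of -0.19. The kinase Sik1 was at 20.4 and 7.68 TPM (log2 ratio -1.36), the orphan receptor Nr4a1 at 4.24 and 1.66 (-1.52) and the glucocorticoid-induced Tsc22d3 at 77.3 and 38.4 (-0.93). Sgk1 was at 32.2 and 15.8 TPM (-0.83) and Fkbp5 at 26.4 and 11.8 (-0.80). Both are known as glucocorticoid-induced and were named after their values were seen, and the edgeR exact test called Sgk1 (adjusted p = 0.0438) but not Fkbp5 (adjusted p = 0.0552). Zbtb16, another glucocorticoid-induced gene, was at 49.1 and 44.5 TPM (0.03) and was not called, and the receptor gene Nr3c1 was at 24.2 and 25.2 (0.14), called higher except with total counts (adjusted p = 0.113, exact binomial test) and by the edgeR exact test (adjusted p = 1). The temperature-responsive list of 9 genes had 8 called lower (4 by edgeR, and 6 with 1 higher under spike-in scaling) and a median of -0.45. It pools chaperones with Cirbp (-0.25) and Rbm3 (-0.16), known as cold-induced and named after their values were seen. Both were called lower by the exact binomial test but not by edgeR. The count and the median therefore do not describe a single temperature response. Hspa1b was at 27.5 and 2.66 TPM (-3.23) and Hspa1a at 16.7 and 2.66 (-2.52), near-identical copies whose split is uncertain. Hsp90aa1 was at 164.5 and 72.8 (-0.82), Hspa8 at 728.7 and 623.4 (-0.28) and Hspa5, a chaperone of the endoplasmic reticulum, at 305.4 and 270.6 (-0.03, not called). Both lists had negative medians, as Per1 and Per2 had negative ratios. Medians were also negative for the output genes (-0.08) and the cardiac muscle (-0.15), macrophage (-0.25), erythroid (-0.37), atrial (-0.43) and white adipocyte (-2.43) markers below. On the Per1 list, Creb1 (log2 ratio 0.02), Crtc1 (0.00) and Crtc2 (-0.07), named after their values were seen, were not called. The lists were chosen with earlier results of these data known, and their part in the result was not tested.

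**Figure D5:**
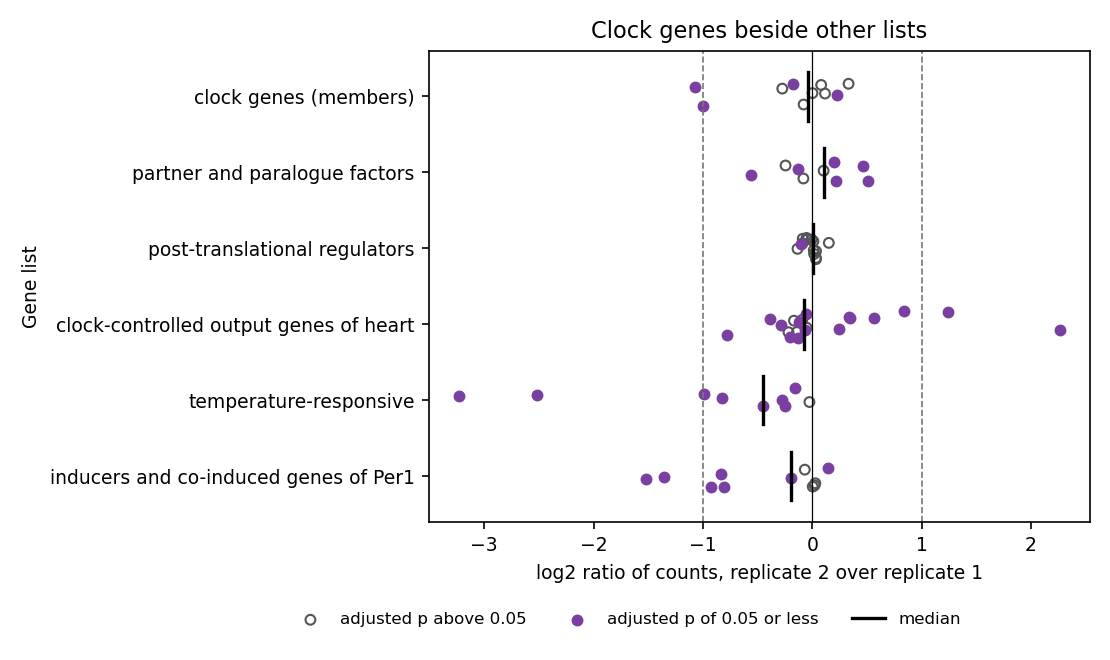
Log2 ratio of scaled counts, replicate 2 over replicate 1, for the 10 clock genes and the tested members of 5 related lists (points, filled where the adjusted p of the exact binomial test was 0.05 or less), with each list's median as a bar and dashed lines at 2-fold. Post-translational regulators cluster around 0.00, and the temperature-responsive list has the lowest median, -0.45.

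Cell type markers differed between the libraries as well, and in bulk tissue fewer cells of a type and less RNA per cell cannot be told apart. All 6 cardiac muscle markers, led by Myl2 and Myh6, were at 1 TPM or more in both libraries, and their summed TPM was 32597 and 26831. Atrial markers (6 of 6 detected, led by Nppa and Myl4) summed to 1395 and 837 TPM, with 5 called lower (1 by edgeR). White adipocyte markers (3 of 5 detected in both, led by Cfd and Adipoq) summed to 32.2 and 6.22 TPM. The 4 tested members were all called lower (4 by edgeR), with a median of -2.43. Erythroid markers (3 of 4, led by Hbb-bs and Hba-a1) summed to 7071 and 4837 TPM and macrophage markers (5 of 5, led by C1qa and Csf1r) to 52.7 and 37.7. The edgeR exact test called no erythroid or macrophage marker. Endothelial (5 of 5, Cdh5 and Pecam1), fibroblast (5 of 5, Dcn and Col1a1) and smooth muscle and pericyte markers (4 of 4, Rgs5 and Acta2) differed less, at 142.6 and 140.6, 187.7 and 176.8, and 178.4 and 164.5 TPM. These sums are in TPM, in which 75.3% of all tested genes were lower in replicate 2. In scaled counts the endothelial, fibroblast and smooth muscle medians were at log2 ratios of 0.11, 0.08 and 0.05. Of the cardiac muscle markers 5 were called lower and 1 higher (3 and 3 with spike-in scaling, none by edgeR), with a median of -0.15. No marker was at 0 in both libraries. Their part in the ratios of Per1 and Per2 was not tested.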

How the data were processed

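Total RNA-seq of 2 heart libraries was described from the gene table and 2 transcript tables deposited per library. Per the file headers, each gene table and one transcript table (the first) hold expected counts and TPM, and the other (the second) holds estimated counts and TPM, as deposited by the authors. Build (mm10) and annotation (GENCODE M21) are given in the deposited file list; the tools and versions used upstream are not given in the sources used here. Expected counts summed to 38858481 over the genes of replicate 1 and to 37281459 over those of replicate 2. Neither the 96 spike-ins nor 26248 unnamed, numbered entries (1.94 and 1 counts) entered library sizes or tests.

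Expected counts were rounded to whole numbers. Library sizes were scaled by TMM in edgeR 4.0.16 (R 4.3.3), after which the effective library size of replicate 2 was -0.14 (log2) relative to replicate 1, against -0.06 for total counts. Genes averaging 1 TPM or more were compared by a two-sided exact conditional binomial test in SciPy 1.17.1, with Benjamini-Hochberg adjustment at 0.05. Log2 ratios used a prior count of 2, and 95% intervals (Clopper-Pearson, counting error only) came from the same counts. The test was run on simulated counts that held counting error only, so this check did not cover any further spread between libraries. Alternatives were total-count, DESeq2 1.42.0 and spike-in scaling, no filter or a filter at 5 TPM, a prior count of 0.5, the second table, and the edgeR exact test with a common dispersion.

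The members and gene lists were chosen with earlier results of these data known. Named besides the members were the 3 genes of highest mean TPM per pathway list and those past both the adjusted threshold and 2-fold, the 2 highest per marker list, and transcripts with at least 10% of a gene's TPM; the text says where others were named, and 1 gene that the rule would name is not reported here. Promoter windows are RefSeq's. Protein sequences were not analysed here.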

Additional observations from a re-analysis of the deposited data

How the results depend on the processing

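With 2 libraries of 1 group, leaving out either replicate leaves a single library, so levels and within-library ratios then equal the other library's value and no ratio between libraries can be made; the log2 ratio of morning over evening ranged from -1.63 to -1.24. No paired analysis was possible because the libraries form 1 group. Per1 and Per2 were called lower under every scaling, table, prior count and test in which they were tested (the filter at 5 TPM leaves out Per2, Per3 and Cry1). The number of members called higher, 1 in the report, was 0 with total counts and with edgeR, 4 with spike-ins (Arntl, Clock, Per3 and Nr1d1), and 2 with the 5 TPM filter and with the second table. Those lower by 2-fold, 1 in the report, were 2 with total counts, DESeq2 size factors, the second table and edgeR, and 0 with spike-ins. The share of all genes lower by 2-fold is given for TMM only, at 0.968%. With a prior count of 0.5 Per1 (-1.07) and Per2 (-1.0045) both passed 2-fold. Of all genes, 3473 were lower and 700 higher with total counts, 990 and 2884 with spike-ins, and 121 and 59 with edgeR. Dbp was called lower with total counts (log2 ratio -0.35). In expected counts, which are not scaled by length, the log2 ratio of morning over evening was -0.70. Signs turned for ratios near 0. Cry2 was at -0.075 with total counts, -0.0096 with DESeq2 size factors and -0.0032 with the second table, and Zbtb16 at -0.049 with total counts. With spike-ins Cry1 was at 0.015, Ppp1cb at 0.050, Csnk2b at 0.0056, Dgat2 at 0.030 and Hspa5 at 0.069. The cause was not tested.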
